A study of Macaca mulatta with 8 samples.

Results

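The genes described here are 40 genes of the cell cycle, chosen by symbol from their known roles in DNA replication and mitosis. All 40 were present, under 41 of the 16429 gene identifiers of the table, because UBE2C has 2 identifiers, which were summed. They were followed through 25397 sorted CD4 T cells of rhesus macaque blood, in a single-cell RNA sequencing study of regulatory T cells (Tregs) after adoptive transfer. Blood mononuclear cells had been frozen, were all thawed on 1 day, and were sorted after a magnetic enrichment of CD4 T cells. The sorts were CFSE-positive cells, taken from the series title as the transferred Tregs; CD3+CD4+ cells with high CD25 and low CD127, the surface phenotype of endogenous Tregs; CD3+CD4+ cells positive for both CD127 and CD25; and CD3+CD4+ cells positive for CD127 and negative for CD25, the conventional phenotype. Each sort gave 1 library on day 20 and 1 on day 3, so there were 8 libraries. With 1 library per sort and day there was no replicate check, and no p-value was computed. The labels name neither the animals nor any treatment, and how many animals contributed to a library is not analysed here.

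A dividing cell licenses its replication origins with the MCM helicase, copies its DNA with PCNA at the fork and nucleotides from ribonucleotide reductase and thymidine kinase, and then enters mitosis under CDK1 and its A and B cyclins. The spindle, the kinetochores and the anaphase-promoting complex then separate the chromosomes. Most blood T cells rest outside this cycle, while activated and effector Tregs are known to divide more often than naive ones. CFSE is a protein-binding dye that is diluted at every division. A CFSE-positive gate can therefore itself set how many recently divided cells a library holds, which was not tested.

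Counts are UMIs, that is, RNA molecules counted once each. Libraries held between 2992787 and 12149559 UMIs, with medians of 2131 to 3095 UMIs per cell, and the 40 genes together had 30697 of 67627231 UMIs. CD3D, a chain of the T cell receptor complex, was between 1175 and 2273 CPM (UMIs of a gene per 1000000 UMIs of the library) in every library. CD4 RNA itself was low, at 3.47 to 7.29 CPM, and CD8A stayed at or under 2.67 CPM. The CFSE-positive day 3 library stood apart from the rest: the median of all genes at 20 CPM or more was 0.36 higher on the log2 scale than in CD25high CD127low day 3 cells. Across libraries, 382 cell barcodes occurred in more than 1 library, in 767 cells. Red cell markers summed to between 126 and 1560 CPM, highest in CD25high CD127low day 3 cells, with ALAS2 and AHSP at 0 in all 4 day 20 libraries. B cell markers summed to 17.0 to 106 CPM and monocyte markers to 12.7 to 145 CPM, both highest in CFSE-positive day 3 cells. The part of these other cell types in the results below was not tested, except where values without the cells carrying their markers are given. All intervals are 95% intervals, exact Poisson for CPM and Clopper-Pearson for shares, and cover counting error only. Where a gene had 0 UMIs in a library, the limit given in CPM is that of 3 counts.

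Most of the signal came from few genes. STMN1, PTTG1, PCNA and RRM1 held 71.1% of all UMIs of the 40 genes and were the 4 that reached 20 CPM in some library. The other 36 stayed below 20 CPM in every library. Together those 36 summed to 107 CPM on day 20 and 152 CPM on day 3 among CFSE-positive cells. The same sum was 140 CPM on day 20 and 174 CPM on day 3 among CD25high CD127low cells, and 105 to 119 CPM in the 4 CD127-positive libraries. Those 4 CD127-positive libraries lay close to each other, and the CFSE-positive day 20 library lay among them.

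Summed over all 40 genes, the level was 401 CPM (379 to 425) on day 20 and 588 CPM (575 to 602) on day 3 in CFSE-positive cells. CD25high CD127low cells had 516 CPM (499 to 533) on day 20 and 562 CPM (548 to 576) on day 3. CD127-positive CD25-positive cells had 424 CPM on day 20 and 362 CPM on day 3, and CD127-positive CD25-negative cells had 338 CPM on day 20 and 325 CPM on day 3. Scaled by total UMIs, the CFSE-positive library was thus the highest of the 4 on day 3 and the second lowest on day 20. The TMM scaling factors of day 3 were 1.196 for CFSE-positive and 0.9488 for CD25high CD127low cells, and a larger factor lowers a level. They were not applied to the sums printed here. Dividing the day 3 sums by these factors puts CFSE-positive cells below CD25high CD127low cells. CFSE-positive cells were therefore highest on day 3 for scaling by total UMIs alone.

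The share of cells with any UMI of the set was also highest in CFSE-positive day 3 cells. At least 1 UMI was found in 63.1% of CFSE-positive cells on day 20 and 77.7% on day 3, and in 62.8% and 62.1% of CD25high CD127low cells. It was found in 51.1% of CD127-positive CD25-positive cells on day 20 and 54.6% on day 3, and in 48.2% of CD127-positive CD25-negative cells on day 20 and 47.8% on day 3. Since so many CD127-positive CD25-negative cells carried a UMI, at medians of 2185 UMIs per cell on day 20 and 2445 on day 3, a single UMI is not read as a sign of division.

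At 3 or more UMIs the CFSE-positive day 3 cells stood furthest out. The share was 9.75% (8.09 to 11.6) of 1149 cells on day 20 and 25.6% (24.3 to 26.9) of 4142 cells on day 3 in the CFSE-positive sort. It was 16.6% (15.1 to 18.1) of 2343 cells on day 20 and 15.2% (14.0 to 16.4) of 3347 cells on day 3 in the CD25high CD127low sort. CD127-positive CD25-positive cells had 7.03% on day 20 and 8.81% on day 3, and CD127-positive CD25-negative cells had 4.35% on day 20 and 5.50% on day 3. The intervals of CFSE-positive and CD25high CD127low cells were apart on both days, with CFSE-positive cells lower on day 20 and higher on day 3.

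That order on day 3 did not hold when cells were thinned to a fixed depth and when fewer genes counted. Median UMIs per cell were 2796 in CFSE-positive and 3095 in CD25high CD127low cells on day 3. With every cell thinned to 1000 UMIs, which left out 29 shallower cells (17 of them CFSE-positive day 3, 6 in each of the CD127-positive libraries of day 20), the share with 3 or more was 3.27% (2.75 to 3.86) in CFSE-positive and 3.41% (2.82 to 4.08) in CD25high CD127low cells on day 3, so the intervals overlapped. A limit of 3 is stricter in thinned cells, and at 1 or more UMIs after thinning the shares on day 3 were 44.2% in CFSE-positive and 30.3% in CD25high CD127low cells. On day 20 the share with 3 or more was 1.13% in CFSE-positive and 3.63% in CD25high CD127low cells. STMN1, PTTG1, PCNA and the MCM genes may also be carried by resting T cells. Without them, 1.59% (1.23 to 2.02) of CFSE-positive and 2.18% (1.71 to 2.73) of CD25high CD127low cells had 3 or more UMIs on day 3, with overlapping intervals.

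At 10 or more UMIs, a limit chosen after the values were seen, CFSE-positive cells had the lowest share on both days. Their intervals overlapped those of CD127-positive CD25-negative cells on both days, and on day 20 also that of CD127-positive CD25-positive cells. No CFSE-positive cell of 1149 reached it on day 20, which allows a share of up to 0.321%, and 6 of 4142 did on day 3, or 0.145% (0.0532 to 0.315). In the CD25high CD127low sort, 23 cells or 0.982% (0.623 to 1.47) reached it on day 20 and 79 cells or 2.36% (1.87 to 2.93) on day 3. There were 18 such cells or 0.379% (0.225 to 0.598) on day 20 and 24 or 0.813% (0.522 to 1.21) on day 3 in the CD127-positive CD25-positive sort. The CD127-positive CD25-negative sort had 8 or 0.218% (0.0940 to 0.428) on day 20 and 9 or 0.296% (0.136 to 0.562) on day 3. Those 167 cells in all are called cycle-high cells below.

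**Figure D1:**
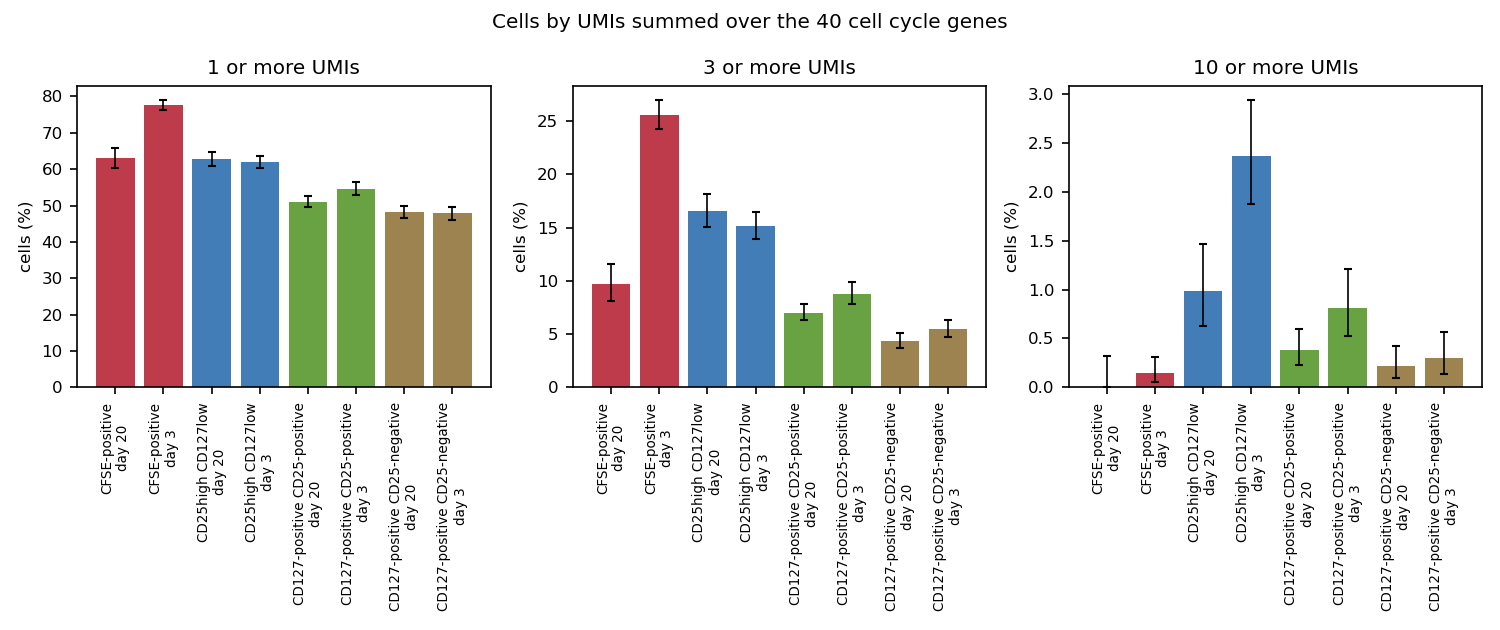
Share of cells (%, y axis, linear, each panel with its own range) with 1 or more, 3 or more and 10 or more UMIs of the 40 genes, in each of the 8 libraries; bars are shares and lines are 95% Clopper-Pearson intervals. The CFSE-positive day 3 library is highest at 1 or more (77.7%) and at 3 or more UMIs (25.6%), and the CD25high CD127low day 3 library is highest at 10 or more (2.36%).

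The full distributions crossed. The highest count in any cell was 6 UMIs in CFSE-positive cells on day 20 and 35 on day 3, against 85 and 138 UMIs in CD25high CD127low cells. The CD127-positive CD25-positive sort reached 85 UMIs on both days, and the CD127-positive CD25-negative sort reached 72 on day 20 and 62 on day 3. The cell with 138 UMIs carried 21 of the 40 genes, and the set made up 2.42% of its 5713 UMIs.

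**Figure D2:**
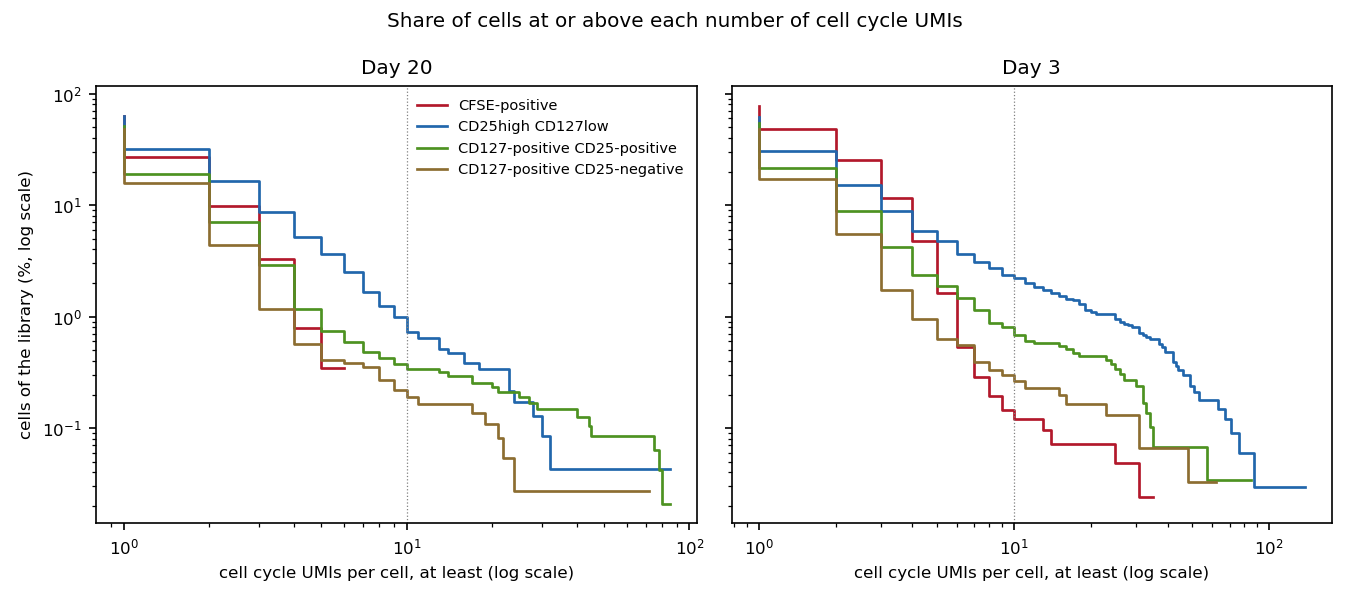
Share of the cells of a library (%, y axis, log scale) that had at least the number of cell cycle UMIs on the x axis (log scale), by sort, on day 20 (left) and day 3 (right); the dotted line marks 10 UMIs. The CFSE-positive line ends at 6 UMIs on day 20 and at 35 on day 3, while the other sorts reach 62 to 138 UMIs.

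By role, the helicase and origin genes were low in every sort. MCM7, a subunit of the replicative helicase, had 15.4 CPM on day 20 and 14.9 CPM on day 3 among CFSE-positive cells, 18.1 and 19.9 CPM in CD25high CD127low cells, and 14.5 to 18.3 CPM in the CD127-positive libraries. MCM3, MCM4, MCM5 and MCM6 lay between 5.01 and 15.7 CPM in all libraries. MCM2 and the licensing and firing factors CDC6, CDC45 and GINS2 stayed between 0.304 and 4.82 CPM. None of these 9 genes reached 20 CPM, so none was compared by fold.

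Of the genes of the fork and of nucleotide supply, PCNA, the sliding clamp of DNA polymerase, was highest in CFSE-positive day 3 cells. It had 35.8 CPM on day 20 and 96.2 CPM on day 3 among CFSE-positive cells, 38.0 and 42.3 CPM in CD25high CD127low cells, 42.6 and 37.3 CPM in CD127-positive CD25-positive cells, and 34.4 and 30.6 CPM in CD127-positive CD25-negative cells, day 20 before day 3 in each. Apart from CFSE-positive day 3, the libraries lay within 30.6 to 42.6 CPM. On day 3, PCNA was detected in 22.3% of CFSE-positive against 10.7% of CD25high CD127low cells.

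RRM1, the large subunit of ribonucleotide reductase, was also highest in CFSE-positive day 3 cells. It had 30.4 CPM on day 20 and 48.5 CPM on day 3 among CFSE-positive cells, 32.2 and 32.8 CPM in CD25high CD127low cells, 30.8 and 26.8 CPM in CD127-positive CD25-positive cells, and 26.9 and 22.5 CPM in CD127-positive CD25-negative cells. Its partner RRM2, which is made mainly in S phase, was at or under 0.381 CPM in every library.

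TK1, the thymidine kinase of S phase cells, was not seen in CFSE-positive cells. It had 0 UMIs there on both days, which allows up to 1.002 CPM on day 20 and up to 0.247 CPM on day 3. In CD25high CD127low cells it had 8 UMIs or 1.22 CPM on day 20 and 57 UMIs or 5.28 CPM on day 3. That day 3 value was 21.4-fold the limit in CFSE-positive cells, a ratio that leaves out the counting error of the 57 UMIs. TYMS, thymidylate synthase, was at or under 1.58 CPM everywhere, and FEN1, the flap endonuclease of lagging strands, and UHRF1, which recruits DNA methylation to new DNA, were between 1.33 and 5.10 CPM.

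The mitotic genes did not move as a group. CDK1, the kinase that starts mitosis, had 4.68 CPM (2.56 to 7.85) on day 20 and 10.0 CPM (8.34 to 11.99) on day 3 in CFSE-positive cells, against 5.17 (3.58 to 7.22) and 5.28 CPM (4.001 to 6.84) in CD25high CD127low cells. The 2 intervals of day 3 were apart when scaled by total UMIs, and TMM factors were not applied to them. Its partner CCNB2, cyclin B2, ran the other way, with 0 UMIs on day 20 and 3 UMIs on day 3 in CFSE-positive cells, against 27 UMIs (4.10 CPM) and 58 UMIs (5.38 CPM) in CD25high CD127low cells.

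BIRC5, or survivin, a subunit of the chromosomal passenger complex, also had 0 UMIs in CFSE-positive cells on both days. It had 5 UMIs on day 20 and 34 UMIs or 3.15 CPM on day 3 in CD25high CD127low cells. That day 3 value was 12.8-fold the limit of 0.247 CPM in CFSE-positive cells, a ratio that leaves out the counting error of the 34 UMIs. NUSAP1 and ZWINT, a spindle-associated protein and a kinetochore protein, were at 8.15 CPM (6.62 to 9.92) and 11.1 CPM (9.32 to 13.2) in CFSE-positive day 3 cells, against 4.08 (2.96 to 5.47) and 7.41 CPM (5.88 to 9.23) in CD25high CD127low day 3 cells. So within the set, scaled by total UMIs, some mitotic genes were more abundant and others near absent in CFSE-positive day 3 cells. TMM factors were not applied to these values.

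MKI67 coats mitotic chromosomes and gives the usual Ki-67 marker of cycling cells. On day 3 it was at overlapping levels in CFSE-positive and CD25high CD127low cells. It had 1.67 CPM (0.542 to 3.90) on day 20 and 8.56 CPM (6.99 to 10.4) on day 3 in CFSE-positive cells, against 9.57 (7.36 to 12.2) and 8.16 CPM (6.54 to 10.0) in CD25high CD127low cells. The CD127-positive CD25-positive sort had 5.63 CPM on day 20 and 2.12 CPM on day 3, and the CD127-positive CD25-negative sort had 1.35 and 2.12 CPM. Thus MKI67 RNA in CFSE-positive cells was near that of the CD25high CD127low library on day 3. On day 20 it was near that of CD127-positive CD25-negative cells. By the authors' class of each cell, 1356 of 2343 CD25high CD127low cells on day 20 and 2037 of 3347 on day 3 were conventional. That library is therefore not endogenous Tregs alone, and MKI67 by finer class is given below. TOP2A, the topoisomerase that untangles sister chromatids, was between 3.37 and 5.65 CPM.

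PTTG1, or securin, which holds separase inactive until anaphase, had the widest range of the 4 members that reached 20 CPM. It had 51.5 CPM (43.7 to 60.3) on day 20 and 123 CPM (117 to 129) on day 3 in CFSE-positive cells, and 170.5 CPM (161 to 181) and 117 CPM (111 to 124) in CD25high CD127low cells. CD127-positive CD25-positive cells had 59.7 CPM on day 20 and 39.6 CPM on day 3, and CD127-positive CD25-negative cells had 36.5 and 33.5 CPM. On day 3 the CFSE-positive and CD25high CD127low libraries lay far above the CD127-positive CD25-negative one. On day 20 only the CD25high CD127low library did. PTTG2, a near-identical copy, is in the table with 1.34 CPM on day 20 and 2.14 CPM on day 3 among CFSE-positive cells and 6.08 and 1.85 CPM in CD25high CD127low cells; how reads shared by the pair were counted is not given in the sources used here, so PTTG1 values are uncertain by such reads.

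STMN1, or stathmin, which destabilises microtubules, was the most abundant member in 7 of the 8 libraries. CFSE-positive cells had 177 CPM on day 20 and 168 CPM on day 3, CD25high CD127low cells 135 and 196 CPM, CD127-positive CD25-positive cells 172 and 154 CPM, and CD127-positive CD25-negative cells 127 and 132 CPM. The sorts overlapped in range, and the order of CFSE-positive and CD25high CD127low cells was opposite on the days. The other mitotic genes (CCNA2, CCNB1, PLK1, AURKA, AURKB, BUB1, BUB1B, CDCA8, CDC20, UBE2C, TPX2, KIF11, KIF20A, CENPE and CENPF) lay between 0 and 10.7 CPM.

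**Figure D3:**
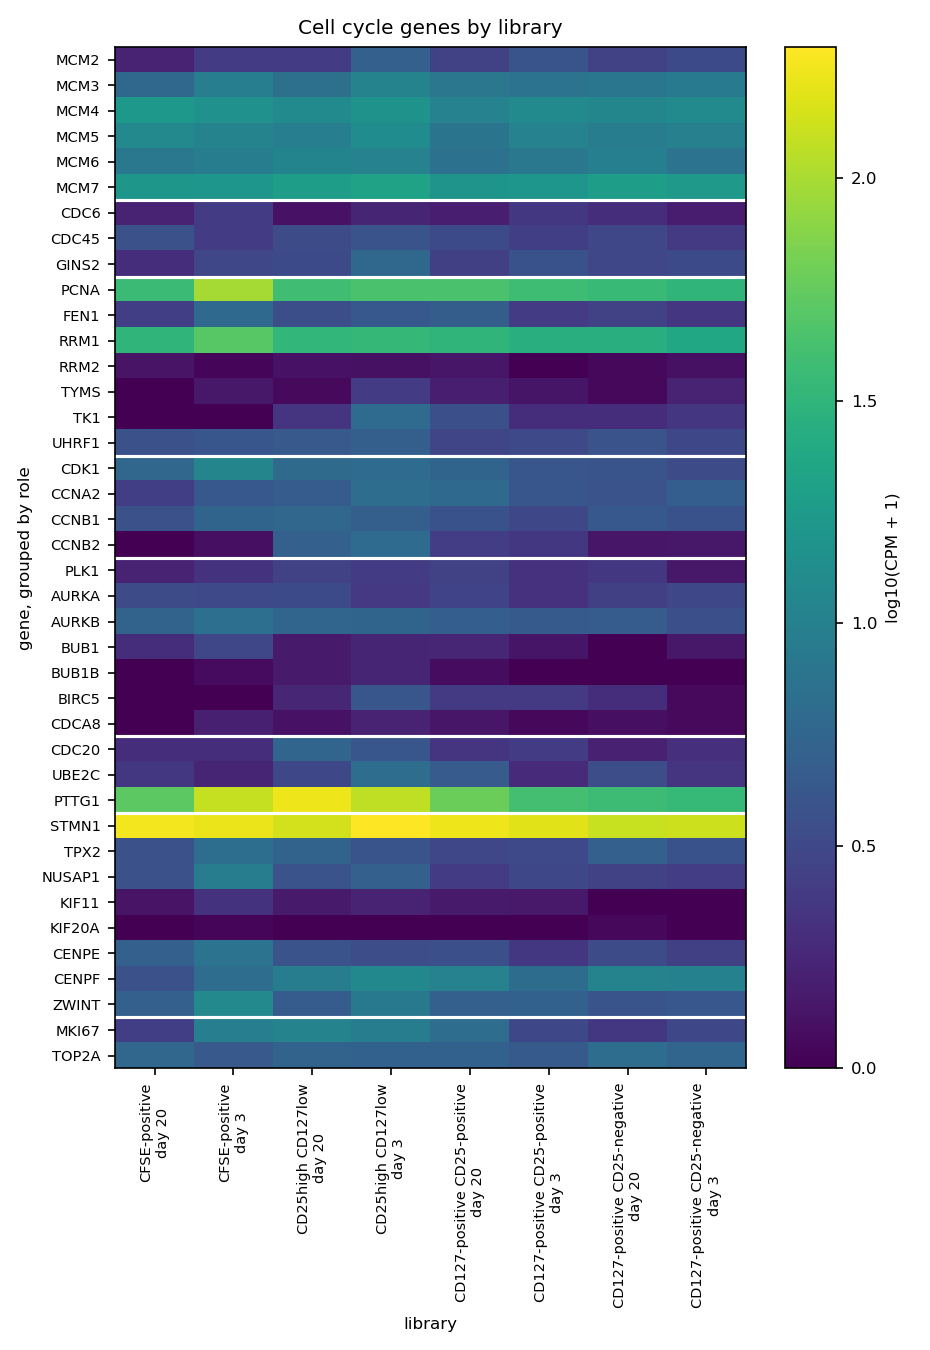
Level of each of the 40 genes (rows, grouped by role with white lines between roles) in each library (columns), as log10(CPM + 1) in colour. PTTG1 and STMN1 are bright in every library, PCNA is brightest in CFSE-positive day 3 cells (96.2 CPM), and TK1 and BIRC5 are at 0 in both CFSE-positive libraries.

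Fold differences between libraries were counted for members at 20 CPM or more in 1 of the 2 libraries compared, on the log2 scale with 10 CPM added, and called at 2-fold or more, a description without a test. The 4 members measured were above 20 CPM in all 8 libraries. The comparisons share libraries and are not independent of each other. CFSE-positive against CD25high CD127low cells on day 3 gave 1 of 4 measured members higher, PCNA at 1.02, where 4.61% of 4147 genes were called higher. With TMM factors PCNA was 0.73, and with median-of-ratios factors 0.72, so the call was lost; these factors moved the median of all genes by -0.27 and -0.28. On day 20 the same comparison gave PTTG1 lower, at -1.55, where 1.69% of genes were called lower.

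Against CD127-positive CD25-negative cells on day 3, CFSE-positive cells were higher in PTTG1 (1.61) and PCNA (1.39), where 9.97% of genes were called higher. On day 20 no member was called in that comparison, where 3.48% of genes were called either way. CD25high CD127low against CD127-positive CD25-negative cells gave PTTG1 higher on both days, at 1.96 on day 20, where 1.08% of genes were called higher, and 1.54 on day 3, where 1.12% were. CD127-positive CD25-positive against CD127-positive CD25-negative cells gave no member called on either day, with 0.778% of all genes called either way on day 20 and 0.735% on day 3.

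Between days, CFSE-positive cells on day 20 were lower than on day 3 in PCNA (-1.22) and PTTG1 (-1.11), where 2.12% of 4208 genes were called lower and the median of all genes was -0.26. With TMM factors PTTG1 was -0.97 and PCNA was still called, at -1.07, while with 30 CPM added both calls were lost, PCNA at -0.94 and PTTG1 at -0.91. STMN1 (0.07) and RRM1 (-0.53) were under the limit. In the other sorts no member was called between days, where 1.72% of genes were called either way in CD25high CD127low, 0.137% in CD127-positive CD25-positive and 0.11% in CD127-positive CD25-negative cells.

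The authors had given cells a class and a cluster number. Of the 40 genes, 16 carry the authors' mark for genes used in ordering the cells, so shares by class or cluster are a description and no test of a class. Among the authors' transferred Treg class, 9.57% of 1128 cells on day 20 and 25.6% of 4096 cells on day 3 had 3 or more UMIs. In the endogenous Treg class the shares were 30.9% of 1303 cells on day 20 and 25.6% of 1658 cells on day 3, and in the conventional class 5.10% of 9489 and 6.73% of 7723 cells. Cycle-high cells numbered 0 on day 20 and 2 on day 3 in the transferred class, against 46 and 109 in the endogenous class, although the day 3 shares at 3 or more UMIs were both 25.6%.

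The finer classes, which cover the CFSE-positive and CD25high CD127low libraries, showed where those cells were. Transferred effector Tregs, which the CFSE-positive sort held on day 3 and not on day 20, had 3 or more UMIs in 34.6% (31.8 to 37.5) of 1124 cells and no cycle-high cell, which allows up to 0.328%. Transferred cells in transition had 21.1% of 57 cells on day 20 and 23.3% of 2687 cells on day 3, with 0 and 4 cycle-high cells. The transferred class held 2 cycle-high cells of the CFSE-positive day 3 library, so the class and the finer class disagree on some of these 4. Without the cells called doublet-like below, 1 of the 4 remained. Transferred naive Tregs had 9.54% of 985 cells on day 20 and 5.69% of 123 cells on day 3, with none cycle-high.

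Among endogenous effector Tregs of the CD25high CD127low sort, 57.0% (52.2 to 61.6) of 444 cells on day 20 and 52.9% (48.3 to 57.6) of 461 cells on day 3 had 3 or more UMIs. The cycle-high share there was 5.18% (3.31 to 7.67) on day 20 and 14.1% (11.1 to 17.6) on day 3. Endogenous naive Tregs had 3 or more UMIs in 4.37% of 412 cells on day 20 and 9.52% of 798 cells on day 3, with 0 and 11 cycle-high cells. In both origins the effector class of day 3 was above the naive one at 3 or more UMIs, while at 10 or more 0 of 1124 transferred and 65 of 461 endogenous effector cells were found. Median UMIs per cell on day 3 were 2744 in transferred and 3363 in endogenous effector cells, and 2457.5 in endogenous effector cells on day 20.

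**Figure D4:**
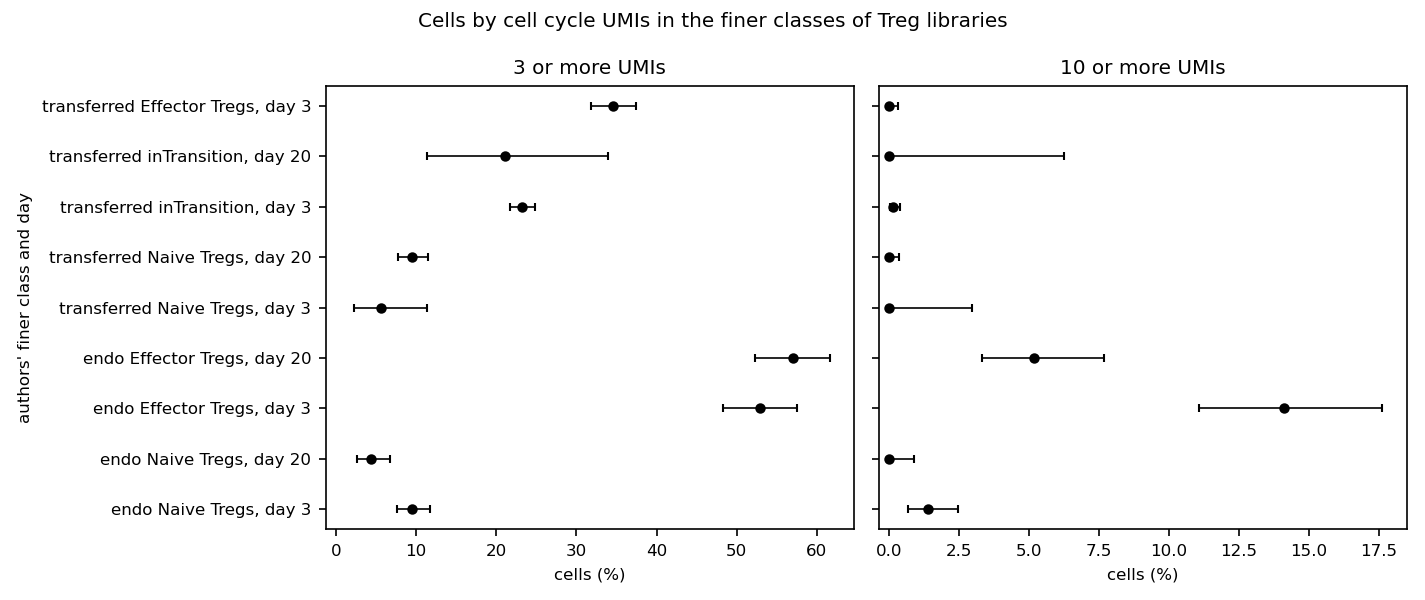
Share of cells (%, x axis) with 3 or more (left) and 10 or more (right) UMIs of the 40 genes in the authors' finer classes (y axis), transferred classes from the CFSE-positive and endogenous ones from the CD25high CD127low library; lines are 95% Clopper-Pearson intervals. Transferred effector Tregs are at 34.6% on the left and 0 on the right, while endogenous effector Tregs are at 57.0% on day 20 and 52.9% on day 3 on the left and at 5.18% and 14.1% on the right.

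By single gene, 4 of the 40 members reached 20 CPM in transferred effector Tregs of day 3 and 15 in endogenous ones. The 4 that reached it in both were PCNA, RRM1, PTTG1 and STMN1, and the other 11 passed the filter through the endogenous class alone, so how many were lower is not read as a result. Over all 4524 genes at 20 CPM in either class, 3.89% were at least 2-fold lower in transferred effector cells and 3.45% higher. PTTG1 had 163 CPM in transferred against 547 CPM in endogenous effector cells, STMN1 181 against 544 CPM, MKI67 5.45 against 40.3 CPM, and TK1 0 against 31.3 CPM; MCM6, MCM7, CCNB2, UBE2C and CENPF were also at least 2-fold lower.

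PCNA was not lower, at 147 CPM (134 to 160) in transferred against 94.4 CPM (80.2 to 110) in endogenous effector cells. In transferred effector cells against transferred cells in transition on day 3, none of 4 measured members was called at 2-fold with 10 CPM added. Over all genes, 0.116% were called higher and 0.0233% lower. PCNA was still 147 CPM in the effector class and 78.6 CPM (72.5 to 85.0) in the transition class, with the intervals apart. The shares with 3 or more UMIs were also apart, at 34.6% (31.8 to 37.5) in effector and 23.3% (21.7 to 24.9) in transition cells.

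Within endogenous Tregs, 7 members on day 20 and 15 on day 3 reached 20 CPM in effector cells, against 4 and 5 in naive cells, and 3 and 5 in both, so many passed the filter through the effector class alone and their number is not read as a result. RRM1, PTTG1 and STMN1 reached it in both classes on both days, and MCM7 and PCNA on day 3. PTTG1 and STMN1 were at least 2-fold higher in effector cells on both days, where 10.8% of genes were on day 20 and 11.2% on day 3. PTTG1 had 653 CPM in effector against 52.4 CPM in naive cells on day 20, and 547 against 45.5 CPM on day 3. Between days, endogenous effector Tregs were at least 2-fold lower on day 20 in 4 members, where 0.859% of genes were, and all but STMN1 passed the filter through day 3 alone: STMN1 was at 226 against 544 CPM, TK1 at 5.99 against 31.3 CPM, UBE2C at 5.99 against 29.5 CPM and MCM7 at 16.5 against 45.1 CPM. PTTG1 was at 653 against 547 CPM there. These fine-class calls were chosen after the values were seen.

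Transferred naive against endogenous naive Tregs on day 20 gave 1 of 5 measured members higher, STMN1 at 176 CPM against 78.7 CPM, where 2.63% of 3920 genes were called higher. PTTG1 was nearly level there, at 49.2 against 52.4 CPM. Of the authors' 10 clusters, cluster 3 had 3 or more UMIs in 47.3% of 810 cells on day 20 and 48.7% of 750 cells on day 3, and the lowest was cluster 6 at 2.80% and 3.36%.

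Of the 167 cycle-high cells, 154 were in cluster 3, and 2 were in the transferred, 155 in the endogenous and 10 in the conventional class. Of the 6 cycle-high cells in the CFSE-positive day 3 library, 2 carried the transferred class and 4 the endogenous class. In the CD127-positive CD25-positive sort, all 18 cycle-high cells of day 20 and all 24 of day 3 had the endogenous Treg class. Of the 167, 2 had a barcode that another library also held.

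Cycle-high cells held more UMIs, with a median of 5106 against 2539 over all cells. By markers of other cells or by over 2 times the median UMIs of the library, 68 of them were doublet-like, 53 through high UMIs, 16 through red cell, 3 through B cell and 6 through monocyte markers. Without doublet-like cells 99 remained, with 0 on day 20 and 3 on day 3 in CFSE-positive cells, against 9 and 49 in CD25high CD127low cells. After thinning to 1000 UMIs per cell, 23 cells still had 10 or more, 0 of them CFSE-positive.

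CD3D was detected in 99.4% of cycle-high cells against 92.2% of cells with no UMI of the set. FOXP3, the Treg transcription factor, was detected in 25.7% against 7.27%, CTLA4 in 32.9% against 4.35%, and IL7R, which encodes CD127, in 36.5% against 64.6%. These shares pool all libraries. Cycle-high cells held more UMIs, and 79 of the 167 came from the CD25high CD127low day 3 library. The part of depth and of the mix of sorts in these shares was not tested. Of the B cell and monocyte markers, MS4A1, S100A8 and S100A9 had 0 UMIs in cycle-high cells. S100A8 and S100A9 also had 0 UMIs in the whole CFSE-positive and CD127-positive CD25-positive libraries of day 20. Their 0 in so few cells therefore cannot tell whether monocyte RNA was present. CD79B was detected in 17.4% against 2.76% and CST3 in 21.6% against 3.24%. The part of B cells and monocytes in the result was not tested.

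Some of the 40 genes were concentrated in cycle-high cells and others were spread over many cells. For each gene, cycle-high cells were set again by 10 or more UMIs of the other 39 members, so that the gene did not choose its own cells. In the 6 libraries other than CFSE-positive, 92.5% (86.2 to 96.5) of the 120 TK1 UMIs, 86.8% (77.1 to 93.5) of BIRC5 UMIs and 81.8% (64.5 to 93.0) of TYMS UMIs lay in them. The share was 57.0% for UBE2C and 44.9% (38.7 to 51.2) for MKI67. TK1, BIRC5 and TYMS thus lay mostly in cells with many other cycle UMIs.

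At the other end, 7.05% (6.27 to 7.90) of PTTG1, 7.31% of RRM1, 8.24% of CCNB1, 15.02% of PCNA and 15.2% of STMN1 UMIs lay in such cells. In the CFSE-positive libraries of both days, 2 of 109 MKI67 UMIs (1.83%, 0.223 to 6.47) and 0 of 136 CDK1 UMIs, up to 2.68%, lay in cells with 10 or more UMIs of the others, against 37.0% (30.4 to 44.0) of CDK1 UMIs in the other 6 libraries. No CFSE-positive cell had more than 2 CDK1 UMIs or 4 MKI67 UMIs. By these highest counts, CDK1 and MKI67 RNA of CFSE-positive cells lay in many cells with few UMIs each. Only 6 CFSE-positive cells on day 3 and 0 on day 20 had 10 or more UMIs of the set. A low share in such cells was therefore near fixed in advance, and the contrast with the other 6 libraries largely restates the number of cycle-high cells.

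**Figure D5:**
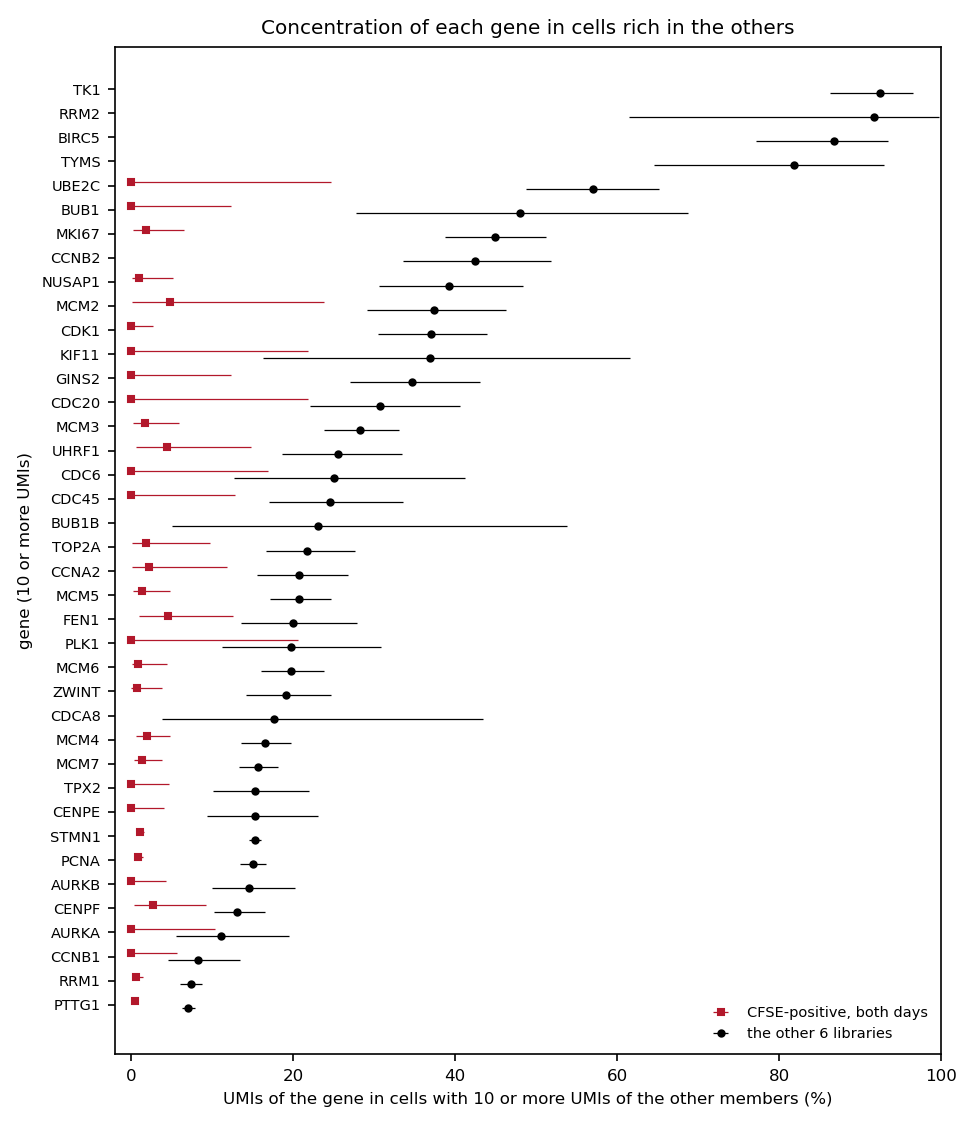
Share of the UMIs of each gene (%, x axis) found in cells with 10 or more UMIs of the other 39 members, for genes with 10 or more UMIs, in the 2 CFSE-positive libraries (squares) and the other 6 libraries (circles); lines are 95% Clopper-Pearson intervals. TK1 (92.5%) and BIRC5 (86.8%) are at the top and PTTG1 (7.05%) and RRM1 (7.31%) at the bottom in the other 6 libraries, while CFSE-positive squares lie below 5%. Only 6 CFSE-positive cells on day 3 and 0 on day 20 had 10 or more UMIs of the set, so low squares were near fixed in advance.

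Leaving aside the abundant members (STMN1, PTTG1, PCNA and the MCM genes), 22 mitosis and 9 replication genes remained. UMIs of the mitosis genes outnumbered those of the replication genes in 91 of the 167 cycle-high cells, UMIs of the replication genes were more in 46, and 30 had equal counts, and the unequal number of genes by itself favours the mitosis side. In CD25high CD127low cells, 16 were on the mitosis and 2 on the replication side on day 20, against 35 and 27 on day 3. The median cycle-high cell had UMIs of 8 of the 40 genes. In 1 cell of the CD25high CD127low day 3 library, UBE2C, the ubiquitin-conjugating enzyme of the anaphase-promoting complex, had 26 UMIs, which is 26 of the 61 UMIs that this library holds of that gene.

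Other genes also moved with the cycle-high state. At 3 or more against 0 UMIs, none of 1474 non-members was 2-fold higher or lower in all 8 libraries (0.0%). At 10 or more against 0 UMIs, in the 4 libraries with at least 15 such cells, 86 of 1737 genes (4.95%) were higher and 8 (0.461%) lower in every library. The largest smallest ratio over the 4 was that of CENPW, a protein of the inner kinetochore, at 2.79 to 4.46 on the log2 scale, followed by CENPM, another kinetochore protein, at 2.76 to 4.54. CENPW had 125 CPM in cycle-high against 2.14 CPM in 0-UMI cells of the CD25high CD127low sort on day 20, and 99.2 against 2.11 CPM on day 3.

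Ranked next were CGA, the alpha chain of glycoprotein hormones (2.37 to 3.94), TPM4, a tropomyosin (2.23 to 2.73), H2AFX, the histone variant that marks DNA breaks (2.09 to 3.50), DHDDS, an enzyme of dolichol synthesis (2.08 to 2.74), and CST7, or cystatin F (2.06 to 2.22). PTMS, ITGB3BP, HIST2H2AA4, CCND2 and DBI completed the first 12. Lower in cycle-high cells were APOD (-2.04 to -1.72), IL7R (-2.95 to -1.44), PGGHG, TXNIP, which restrains glucose uptake (-2.82 to -1.19), CD69, ICAM2 and LST1, which are the 7 of 8 lower genes that the naming rule keeps.

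Since 154 of the 167 lay in cluster 3, the comparison was repeated inside it. Within cluster 3 alone, 16 of 1846 genes (0.867%) were higher and 2 (0.108%) lower in cycle-high cells, and 14 of the 16 were among the 86. They included CENPW (2.89 to 4.68), DCTPP1, which clears deoxynucleotides (1.87 to 2.76), AHCY (1.80 to 2.28), DHDDS, CENPM, ITGB3BP, the histone variants H2AFZ, H2AFV and H2AFX, ANP32B, PSME2 and RPA3, a subunit of the single-strand binding protein of replication. CTSL and PGGHG were lower. The 0-UMI side held only 24 to 66 cells of cluster 3 per library, with 0 or 1 UMIs of CENPW, 1 to 3 of AHCY and 1 or 2 of ITGB3BP. These 3 genes passed the 50 CPM filter through the cycle-high cells alone, where CENPW had as few as 8 UMIs. Their ratios depend much on the 10 CPM added.

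Among lists of other cell cycle genes, the replication-linked chromatin list also holds the tubulins TUBA1B and TUBB, which are not chromatin genes. Of its 8 measured genes, 6 were higher in cycle-high cells in all 4 libraries, where 4.95% of genes were. A gene was measured when it had 50 CPM in cycle-high or in 0-UMI cells, so a gene could pass through the cycle-high cells alone. TUBA1B, an alpha tubulin, was at 610 against 233 CPM in CD25high CD127low cells on day 20 and at 1183 against 213 CPM on day 3, cycle-high against 0-UMI cells, and H2AFZ at 1077 against 332 and 1168 against 334 CPM. Of the other lists, 2 of 4 measured other G2 and M genes (SMC4 and TUBB4B), 1 of 3 other S phase genes (DUT), 1 of 2 cyclins and CDKs (CCND2), and none of 2 CDK inhibitors and 2 quiescence genes were higher. No E2F and DREAM gene was measured in them.

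Inhibitors of cyclin-dependent kinases hold cells before S phase. On day 3, 6 of the 7 listed inhibitors reached 20 CPM in CFSE-positive or CD25high CD127low cells, 4 of them (CDKN1A, CDKN2A, CDKN2B and CDKN2C) in CFSE-positive cells alone, so the number called higher is not read as a result. Over all genes 4.61% were called higher and 2.36% lower. CDKN1A, or p21, had 32.4 against 4.91 CPM, CDKN2A, which encodes p16, 45.0 against 6.67 CPM, CDKN2B, or p15, 22.0 against 2.13 CPM, CDKN2C, or p18, 48.2 against 9.55 CPM, and CDKN2D, or p19, 259 against 104 CPM. All 5 were called higher. With TMM or median-of-ratios factors, CDKN2D was under 2-fold, at 0.92 and 0.91, and CDKN2B fell below 20 CPM, so 3 were called, and with 30 CPM added 2 were, CDKN2A and CDKN2D. CDKN1B, or p27, was higher at 174 against 86.5 CPM, which is under 2-fold once 10 CPM are added, so it was not called.

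Between days, CDKN1A, CDKN2A and CDKN2B were called lower in CFSE-positive cells on day 20, where 2.12% of 4208 genes were and the median of all genes was -0.26. These 3 passed the filter through the day 3 library alone. CFSE-positive cells had 6.01 CPM of CDKN1A on day 20 against 32.4 CPM on day 3, 13.0 against 45.0 CPM of CDKN2A and 1.002 against 22.0 CPM of CDKN2B, while CDKN1B was at 209 against 174 CPM. With TMM factors CDKN1A (-1.25) and CDKN2A (-1.11) were still called and CDKN2B was below 20 CPM on both days, and with 30 CPM added none of the 3 was called. On day 20, CDKN1A was level between CFSE-positive and CD25high CD127low cells, at 6.01 against 5.93 CPM. In the other 6 libraries CDKN1A stayed between 3.62 and 6.89 CPM and CDKN2A at or under 6.67 CPM.

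CCND2, cyclin D2, which activates CDK4 and CDK6 in G1, was highest in CFSE-positive day 3 cells. It had 18.0 CPM on day 20 and 70.8 CPM on day 3 among CFSE-positive cells, 25.5 and 47.9 CPM in CD25high CD127low cells, 23.2 and 23.0 CPM in CD127-positive CD25-positive cells, and 15.2 and 17.2 CPM in CD127-positive CD25-negative cells. It was the cyclin gene called lower in CFSE-positive cells on day 20 against day 3, at -1.53, and it passed the filter through day 3 alone.

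In CFSE-positive against CD25high CD127low cells on day 3, none of 4 measured cyclins and CDKs, none of 3 E2F and DREAM genes and none of 6 other G2 and M genes was called, where 4.61% of genes were called higher and 2.36% lower. Of 4 other S phase genes 1 was higher, POLD3, a subunit of polymerase delta, at 43.1 against 16.2 CPM. Of 9 replication-linked chromatin genes 1 was higher, SMC2, a condensin subunit, at 39.2 against 11.7 CPM. Of 7 quiescence genes, TOB1, an antiproliferative protein, at 147.5 against 52.6 CPM, and SLFN5, at 87.2 against 35.0 CPM, were higher, and FOXP1, a factor of naive T cell quiescence, was lower, at 6.75 against 29.8 CPM. With TMM factors the calls of POLD3 (0.77), SMC2 (0.94) and SLFN5 (0.82) were lost, while TOB1 (1.03) and FOXP1 (-1.41) were still called; with 30 CPM added TOB1 alone of these 5 was called. POLD3 and SMC2 passed the filter through CFSE-positive cells alone, and FOXP1 through CD25high CD127low cells alone. How many of these lists were called is therefore not read as a result. The lists hold 107 genes in all, of which 101 were in the table.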

How the data were processed

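Per the labels, the libraries used 10x 3' chemistry, version 2. Per the submitters' processing notes, Cell Ranger 2.1.1 was a tool of the study. The genome build, the annotation and the authors' filters on cells are not given in sources used here. The authors deposited whole UMI counts per gene and cell, without scaling, and a library, class, finer class and cluster for each cell. Counts were summed per library or class and scaled to CPM by the total of that library or class; library totals ran between 2992787 and 12149559 UMIs. Ratios are log2 ratios with 10 CPM added, which understates changes of low genes, called at 2-fold with 20 CPM in 1 set, or 50 CPM between cell sets. 0 columns went unused. No cell was removed and no doublet caller was run; 1194 doublet-like cells (at least 3 UMIs of platelet, monocyte, B cell or red cell markers, or over 2 times the library's median UMIs) were left out in an alternative. No cells were clustered. Sums and thinning were tested on simulated data. Python 3.11.15, numpy 2.4.6, scipy 1.17.1 and pandas 2.3.3 were used, with edgeR 4.0.16 (TMM) and DESeq2 1.42.0 (median of ratios) for scaling only.

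The genes and lists were chosen with earlier results of these data known. Members at 20 CPM in some library are named with all values and the others by range; of the genes that go with cycle-high cells, the 12 per direction with the largest smallest ratio are named, without unnamed, mitochondrial and ribosomal protein genes. Lists were cyclins and CDKs, CDK inhibitors, E2F and DREAM, quiescence, other S phase, other G2 and M, and replication-linked chromatin genes. The last list includes the tubulins TUBA1B and TUBB. Members below 20 CPM given one by one, CDK1 and MKI67 among them, were picked after their values were seen, and so were the limit of 10 UMIs and the comparisons of finer classes. Alternatives were thinning to 1000 UMIs, other limits, gene subsets, scalings, pseudocounts of 1 and 30 CPM, 50 CPM or no filter, and mean per-cell CPM.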

Additional observations from a re-analysis of the deposited data

Results flagged for a closer look

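The level of the 40 genes moved in opposite directions between the days in different sorts, a difference that was not tested, since each sort had 1 library a day. Their summed level on day 20 minus that on day 3 was -187.12 CPM in CFSE-positive cells and -46.32 CPM in CD25high CD127low cells, against 61.79 CPM in CD127-positive CD25-positive cells. PTTG1 on day 20 minus day 3 was -71.593 CPM in CFSE-positive cells, against 53.55 CPM in CD25high CD127low and 20.113 CPM in CD127-positive CD25-positive cells. STMN1 on day 20 minus day 3 was -60.62 CPM in CD25high CD127low cells, against 18.54 CPM in CD127-positive CD25-positive cells.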

How the results depend on the processing

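No paired analysis was possible because each sort had 1 library a day, and for the same reason no library was left out in turn. The order of CFSE-positive and CD25high CD127low cells on day 3 did not hold under several alternatives, in the share at 3 or more UMIs and in the summed level. Values below are in the order of CFSE-positive, then CD25high CD127low, then CD127-positive CD25-positive, then CD127-positive CD25-negative cells.

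The shares moved with thinning and with the limit. After thinning to 1000 UMIs per cell, 1.13%, 3.63%, 1.58% and 0.926% of cells on day 20 and 3.27%, 3.41%, 1.29% and 1.05% on day 3 had 3 or more UMIs, and 31.8%, 35.4%, 30.1% and 27.8% on day 20 and 44.2%, 30.3%, 26.3% and 25.9% on day 3 had 1 or more. With 5 or more UMIs the shares were 0.783%, 5.21%, 1.18% and 0.571% on day 20 and 4.78%, 5.92%, 2.37% and 0.955% on day 3. With 3 or more different genes they were 5.40%, 7.13%, 2.76% and 2.47% on day 20 and 15.6%, 8.37%, 4.98% and 2.83% on day 3. Without STMN1, PTTG1, PCNA and the MCM genes they were 0.261%, 1.54%, 0.547% and 0.408% on day 20 and 1.59%, 2.18%, 0.949% and 0.362% on day 3. With 10 or more UMIs, added after seeing the data, they were 0%, 0.982%, 0.379% and 0.218% on day 20 and 0.145%, 2.36%, 0.813% and 0.296% on day 3. On day 3, CFSE-positive cells were thus above CD25high CD127low cells with 3 or more UMIs, with 3 or more different genes and, after thinning, with 1 or more UMIs. Their shares were below after thinning at 3 or more, at 5 or more, at 10 or more and without the abundant genes. Of these lower shares, only those at 10 or more UMIs had intervals apart, and the others overlapped.

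Without doublet-like cells the CD25high CD127low shares at 3 or more UMIs were 14.8% on day 20 and 13.4% on day 3. Their summed level was then 464 CPM on day 20 and 502 CPM on day 3, and that of CD127-positive CD25-positive cells 373 and 341 CPM. Without STMN1, PTTG1 and PCNA, the summed level was 137.0, 172, 149 and 141 CPM on day 20 and 201, 207, 131 and 128 CPM on day 3. The intervals of CFSE-positive (193 to 209) and CD25high CD127low cells (198 to 216) then overlapped on day 3, against 588 and 562 CPM over all 40 genes. Divided by the TMM or median-of-ratios factors, the day 3 summed level over all 40 genes is lower in CFSE-positive than in CD25high CD127low cells. As a mean of per-cell CPM it was 502 CPM in CD25high CD127low cells on day 3, 406 and 347 CPM in CD127-positive CD25-positive cells on days 20 and 3, and 354 CPM in CD127-positive CD25-negative cells on day 20.

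In CFSE-positive against CD25high CD127low cells on day 3, the call of PCNA was lost, leaving 0, with TMM, median-of-ratios factors or 30 CPM added. In CFSE-positive cells on day 20 against day 3, 1 call was left with TMM, 1 with median-of-ratios factors and 0 with 30 CPM added. The number of other genes higher in every library was 86 at 10 or more UMIs and 16 inside cluster 3, both added after seeing the data. The causes of these changes were not tested. Counts of UMIs per cell limit what can be seen: most of the 40 genes are at a few CPM, so a low count in a cell does not show that it was not dividing.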
